A study of Mus musculus with 12 samples.

Results

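Rflnb and Rflna, the genes of the refilins, and Flna, the gene of filamin A, were followed through 12 libraries of cultured mouse Tregs. They are 3 of the 55228 gene symbols measured. Rflnb was chosen by its large fall in RNA level in vector Tregs kept in IL-2 against vector Tregs without it, and the other two were taken with it as its paralog and its binding partner. Its fall with IL-2 is therefore given as a description, without a test.

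Filamin A is a large actin-binding protein that joins actin filaments into networks and anchors membrane receptors, integrins among them, to the cytoskeleton. Refilin B (Rflnb) and refilin A (Rflna) are small vertebrate proteins that bind filamins and turn them from network crosslinkers into bundlers of actin filaments. In T cells, filamin A is known as the main filamin, and it takes part in integrin adhesion and in costimulation through CD28.

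By the labels, lymph node Tregs were sorted as GFP+CD25+ cells from 16 pooled NOD.Foxp3-GFP mice, whose Foxp3 locus reports with GFP. The pool was divided into 3 parts, each sorted on its own machine and activated apart from the others. Each part was transduced on day 2 with an empty retroviral vector (EV) or with a tether construct, 1G12t or 3A10t, which links an orthogonal IL-2 (1G12 or 3A10) to the orthogonal IL-2Rβ chain. All vectors carried the surface reporter Thy1.1. IL-2 was washed out on day 4, except in a portion of the EV cells that stayed in IL-2 (EV+IL-2), and 5 days later, on day 9, the Thy1.1+ cells were purified by sorting. The 4 groups, with 3 libraries each, were the EV cells without IL-2 (EV no IL-2), the EV+IL-2 cells, and the 1G12t and 3A10t cells, both without IL-2. The tether groups made their constructs throughout the culture and received no soluble IL-2 after the wash, so the soluble and tethered signals differ in dose and form. The 3 replicates of a group were separate cultures of one pool of cells and not separate animals, and p-values measure only the spread between these cultures.

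The 6 Treg markers (Foxp3, Il2ra, Ctla4, Ikzf2, Cd4 and Cd3e) were present in every library, with a lowest single value of 128 TPM and a summed level of 1363 to 2262 TPM. In 3A10t Tregs the sum was 1363 to 1934 TPM, against 1872 to 2078 TPM in EV no IL-2. B cell markers summed to 8.48 to 14.1 TPM and CD8 T cell markers to 3.71 to 5.72 TPM. Myeloid markers summed to 482 to 653 TPM, nearly all from Cst3, with Lyz2 at most 0.41 TPM. The erythroid list was higher in EV+IL-2 (160 to 184 TPM) than in EV no IL-2 (57.8 to 71.7 TPM), most of it Gata1. The α-globin gene Hba-a1 had a mean of 0.687 TPM in EV no IL-2 and 18.1 TPM in EV+IL-2, and Alas2 was at most 1.26 TPM. The endothelial and fibroblast list was lower in EV+IL-2 (47.7 to 51.0 TPM) than in EV no IL-2 (78.7 to 87.6 TPM), most of it Pecam1. The platelet list stayed at 0.85 to 4.33 TPM. The part of these levels in the results on Rflnb and Flna was not tested. TPM keep no record of read number, so depth is unknown for all libraries, and they are compared here by the number of genes above 0, which was 30393 to 36239 in the cells with IL-2 and 37930 to 43285 in those without. Libraries of 3A10t replicates 1 and 2 stood farthest from the others of their group, with a median absolute deviation per gene of 0.26 and 0.29 on the log2 scale against 0.098 to 0.19 in the 10 other libraries.

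Rflnb lies on mouse chromosome 11 (GRCm38, 76019194 to 76027782, minus strand, ENSMUSG00000020846.6) and has 1 annotated transcript of 3 exons and 3512 bases. Rflna lies on chromosome 5 (125003221 to 125012547, plus strand, ENSMUSG00000037962.7), with 4 exons and 1681 bases in its longest transcript. Flna lies on the X chromosome (74223461 to 74249820, minus strand, ENSMUSG00000031328.15), with 47 exons and 8456 bases. The 250 bases upstream of the RefSeq start of Rflnb, the gene with the large fall, and of Flna, its partner, are shown here for comparison, from GRCm38.p6 on the minus strand at chr11:76027783-76028032 and chrX:74246535-74246784. The start that RefSeq uses for Flna falls inside the span that GENCODE gives the gene. Capitals mark the GC box GGGCGG, searched on both strands with overlapping matches counted.
Rflnb: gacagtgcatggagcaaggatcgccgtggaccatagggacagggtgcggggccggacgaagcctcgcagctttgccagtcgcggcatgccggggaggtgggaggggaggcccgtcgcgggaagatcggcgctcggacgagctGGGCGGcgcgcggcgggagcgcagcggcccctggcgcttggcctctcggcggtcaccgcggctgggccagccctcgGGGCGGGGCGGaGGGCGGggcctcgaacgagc
Flna: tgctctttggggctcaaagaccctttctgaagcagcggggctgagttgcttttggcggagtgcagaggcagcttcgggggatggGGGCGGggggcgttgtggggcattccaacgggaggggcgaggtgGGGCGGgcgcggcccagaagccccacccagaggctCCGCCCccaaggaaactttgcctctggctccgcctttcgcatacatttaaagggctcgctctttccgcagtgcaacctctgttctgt
The Rflnb stretch held 4 GC boxes, 34 CpG and 76% GC, and 3.53% of the 32851 RefSeq mouse promoter windows of this length held as many CpG. The Flna stretch held 3 GC boxes, 15 CpG and 63.6% GC, and 27.3% of windows held as many CpG. The median window had 6 CpG and 52.4% GC, and 32.7% of windows held at least 1 GGGCGG. On either strand, neither stretch held the STAT motif TTCNNNGAA (7.02% of all windows), the FOXO motif GTAAACA (3.17%), TATAAA (12.4%) or the CArG box (1.47%). These counts describe letters in a short window and say nothing of which factors act on the genes.

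Flna was expressed far above the refilins, and Rflnb was the abundant refilin. Averaged over all libraries and normalized for transcript length, Flna stood at 226.5 TPM, rank 685 from the highest of 11052 protein-coding genes with a mean of at least 1 TPM. Rflnb stood at 17.5 TPM (rank 6194), Rflna at 0.66 TPM and Flnc, the gene of the muscle filamin C, at 0.31 TPM. Rflnb made up 90.6% to 99.4% of the TPM of the 2 refilin genes. Of Rflnb, Rflna and Flna, 2 passed the filter of a mean of at least 1 TPM and were tested, and Rflna did not.

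With IL-2, Rflnb was at a small fraction of its level without IL-2, in every culture. In scaled TPM, that is TPM divided by a factor that equalizes the typical gene across libraries, Rflnb stood at 25.1, 24.0 and 24.1 in EV no IL-2 replicates 1 to 3 (24.4 ± 0.576, SD, n = 3). The EV+IL-2 libraries held 3.15, 3.54 and 3.11 (3.27 ± 0.235, SD, n = 3). The groups were far apart, with all 3 libraries lower as for 20% of the 15043 genes tested, and the replicates of each lay within a narrow range. The mean was 7.47-fold lower with IL-2, a difference of −86.6%, and −2.58 on the log2(scaled TPM + 1) scale, with an SE of 0.11. On that scale, only 4 of the 11052 protein-coding genes had a lower log2 fold change, which is the choice of the gene seen again and not a separate result. In bulk RNA, fewer cells that express Rflnb and less Rflnb RNA per cell cannot be told apart.

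Neither tether brought Rflnb near its level in IL-2. In 1G12t Tregs, Rflnb stood at 19.1, 24.6 and 24.1 scaled TPM (22.6 ± 3.03, SD, n = 3), and 2 of the 3 libraries lay within the range of EV no IL-2. In 3A10t Tregs it stood at 18.1, 20.0 and 16.6 (18.3 ± 1.72, SD, n = 3), below every EV no IL-2 library and therefore below that of the same sort. From the highest mean to the lowest, the order was EV no IL-2, then 1G12t, then 3A10t, then EV+IL-2. The libraries of 1G12t overlapped with those of both neighbours in that order, and the gap of 15.0 scaled TPM between 3A10t and EV+IL-2 had no overlap. Against EV+IL-2, Rflnb was 5.59-fold higher in 3A10t (log2 difference 2.17) and 6.91-fold higher in 1G12t (2.46), as a description, since the EV+IL-2 level chose the gene. Libraries of 3A10t lay above all EV+IL-2 libraries in 18.9% of all genes, and those of 1G12t in 21.2%.

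**Figure D1:**
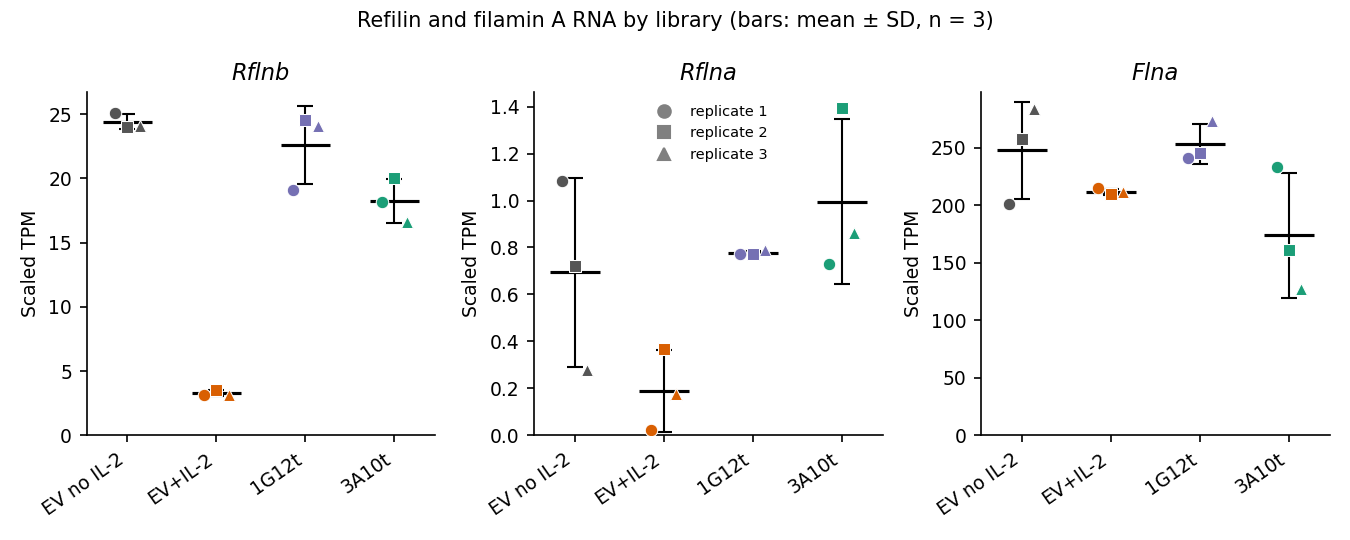
Scaled TPM (y axis, linear, from 0) of Rflnb, Rflna and Flna in each of the 12 libraries by group, with symbols for the replicate number and bars for the mean ± SD of 3 libraries. Rflnb in EV+IL-2 lay at 3.11 to 3.54 against 16.6 to 25.1 in the other groups, whereas Flna in EV+IL-2 lay within the range of EV no IL-2.

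Between the groups without IL-2, the tests on Rflnb share the EV no IL-2 libraries with the choice of the gene, except 3A10t against 1G12t. Rflnb was lower in 3A10t than in EV no IL-2 by −25.2% of the mean, with a log2 difference of −0.40 (95% interval −0.64 to −0.17, limma adjusted p = 0.0725), which missed the threshold of 0.05. All 3 libraries were lower, as for 12.1% of genes, and 1.6% of genes passed the threshold on the lower side. For 1G12t against EV no IL-2 the log2 difference was −0.12 (95% interval −0.35 to 0.12, limma adjusted p = 0.808), with overlapping libraries and 0.0199% of all genes past the threshold. For 3A10t against 1G12t it was −0.29 (95% interval −0.52 to −0.053, limma adjusted p = 0.108), again with overlap, where 4.27% of genes passed.

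The side of the threshold on which Rflnb fell in 3A10t depended on the scaling of the libraries and on library weights. Against EV no IL-2 it also depended on 3A10t replicate 1. The weighted fit gave −0.49 against EV no IL-2 (limma adjusted p = 0.0064) and −0.37 against 1G12t (0.0300). With TPM as deposited, the median of all genes shifted by −0.12 in 3A10t against EV no IL-2 and by −0.16 against 1G12t. Rflnb then differed by −0.55 (limma adjusted p = 0.0343) and −0.47 (0.0305), where 3.32% and 9.28% of all genes passed. After a correction for transcript length, described with Flna, the differences were −0.27 (limma adjusted p = 0.200) and −0.17 (0.400). Rflnb was lower in 3A10t than in both groups under every scaling tried.

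Flna did not share the large fall of Rflnb with IL-2. Without IL-2, EV Tregs held Flna at 201.5, 258 and 284 scaled TPM (248 ± 42.1, SD, n = 3), and with IL-2 at 215, 209 and 212 (212 ± 2.60, SD, n = 3). All of the EV+IL-2 libraries lay within the range of the EV no IL-2 libraries. The log2 difference was −0.21, given without a test because this contrast chose Rflnb, with which Flna was taken. It ranged from −0.35 without EV no IL-2 replicate 1 to −0.11 without replicate 3. Within each library of EV Tregs, Rflnb was 12.4%, 9.32% and 8.49% of the Flna TPM without IL-2, and 1.47%, 1.69% and 1.47% with it. In 1G12t the share was 7.93%, 9.99% and 8.80%, inside or just under the EV no IL-2 range. In 3A10t it was 7.76%, 12.4% and 13.1%, so that the 3A10t libraries lay on both sides of EV no IL-2. This share falls with the same Rflnb values that chose the gene, and it is a ratio of RNA levels, not of proteins.

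**Figure D2:**
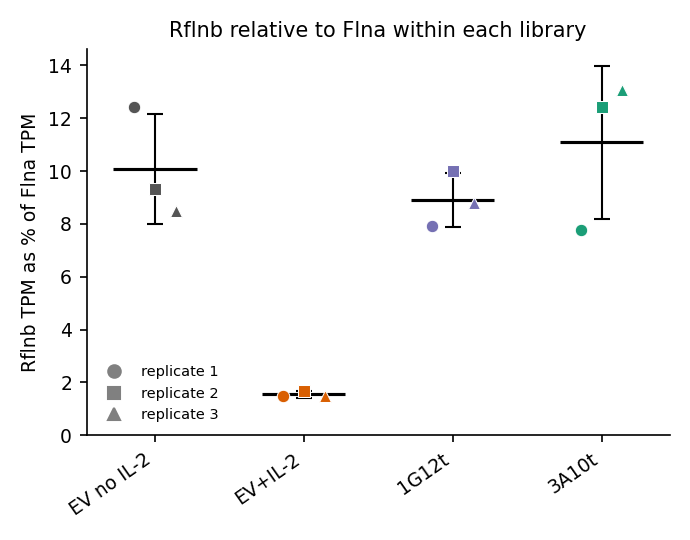
Rflnb TPM as a percent of Flna TPM in the same library (y axis, linear, from 0), by group, with symbols for the replicate number and bars for the mean ± SD of 3 libraries. The EV+IL-2 libraries lay at 1.47% to 1.69%, and the other 9 libraries at 7.76% to 13.1%.

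In the tether groups, Flna was even in 1G12t and scattered in 3A10t. In 1G12t Tregs, Flna stood at 241, 246 and 273 scaled TPM (253 ± 17.6, SD, n = 3), within the range of EV no IL-2 (log2 difference 0.044, 95% interval −0.38 to 0.47, limma adjusted p = 0.970). In 3A10t Tregs it stood at 234, 161 and 127 (174 ± 54.5, SD, n = 3). Replicate 1 of 3A10t lay above the EV no IL-2 culture of its own sort, and replicates 2 and 3 lay far below theirs. The mean difference from EV no IL-2 was −29.8%, or −0.54 on the log2 scale (95% interval −0.96 to −0.12, limma adjusted p = 0.122), with overlapping libraries. Against 1G12t the log2 difference was −0.58 (95% interval −1.004 to −0.16, limma adjusted p = 0.0826). There all 3 libraries of 3A10t were lower, as for 12.5% of all genes.

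Whether Flna passed the threshold in 3A10t depended on replicate 1, on library weights and, against 1G12t, on the scaling. Without that library the log2 difference was −0.77 from EV no IL-2 (limma adjusted p = 0.0051) and −0.81 from 1G12t (0.0041), and with library weights it was −0.82 in both comparisons (0.0050 and 0.0088). Those weights were 0.32 and 0.26 for 3A10t replicates 1 and 2 and 2.18 for replicate 3, so they leaned on the library with the lowest Flna. With TPM as deposited, Flna in 3A10t differed from 1G12t by −0.78 (limma adjusted p = 0.0494), where 9.28% of all genes passed. For Rflnb, leaving out 3A10t replicate 1 kept the difference from EV no IL-2 at −0.40, past the threshold (limma adjusted p = 0.0405). Many genes passed in these fits. Without that library, 23.2% of all genes passed against EV no IL-2 and 27.6% against 1G12t. With library weights the shares were 20.4% and 20.7%, beside 2.05% and 4.27% in the main fit.

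Against EV+IL-2, Flna differed by −0.33 in 3A10t (95% interval −0.75 to 0.092, limma adjusted p = 0.237) and by 0.25 in 1G12t (95% interval −0.17 to 0.68, limma adjusted p = 0.391), on the log2 scale. The 3A10t difference passed the threshold without 3A10t replicate 1 (−0.56, limma adjusted p = 0.0151) and with library weights (−0.60, 0.0089), and it was −0.13 without replicate 3. In the main fit of these comparisons 23.4% and 20.6% of all genes passed the threshold. All 3 libraries of 1G12t lay above all 3 of EV+IL-2 for Flna, as for 21.2% of genes.

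The median log2 difference between 3A10t and EV no IL-2 varied with the length of the transcript. Among protein-coding genes, the median log2 difference was 0.24 for 515 genes with transcripts under 1 kb, −0.13 for 2248 genes of 3 to 4 kb, the class of Rflnb, −0.17 for 2574 genes of 4 to 6 kb and −0.045 for 582 genes of 8 kb and more, the class of Flna. In 1G12t the longest class was higher by 0.19. With IL-2 the medians ran from 0.11 to −0.035. By library, the longest class minus the shortest, each against the EV no IL-2 mean, was −0.066, −0.61 and −0.17 in 3A10t replicates 1 to 3. In EV no IL-2 replicates 1 to 3 it was −0.14, −0.065 and 0.22. Replicate 2 of 3A10t thus lay far below that range, replicate 3 just below it and replicate 1 within it. The longest class alone stood at 0.0020, −0.12 and −0.0011 in the 3A10t libraries, and the shortest at 0.068, 0.49 and 0.16. Flna minus its EV no IL-2 mean was −0.070, −0.60 and −0.94 in the same libraries. After a correction for the length trend, Flna in 3A10t differed from EV no IL-2 by −0.47 (limma adjusted p = 0.159), and its difference in 1G12t changed sign to −0.098 (0.881).

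**Figure D3:**
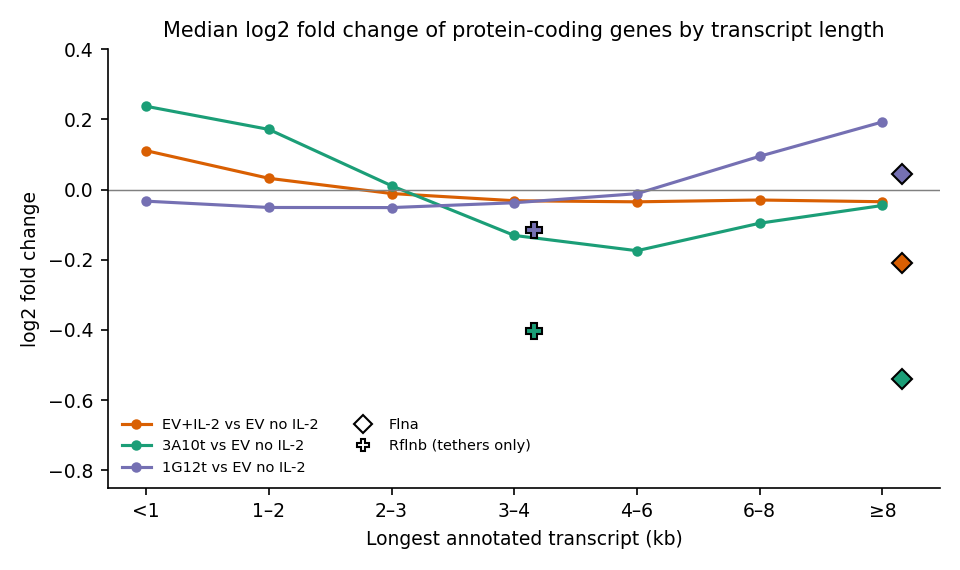
Median log2 fold change of protein-coding genes (y axis) by the length of the longest annotated transcript in kb (x axis, 7 classes) for 3 comparisons with EV no IL-2, drawn as lines, with single genes as symbols. Rflnb (−0.40) and Flna (−0.54) in 3A10t lay below the median of their length classes (−0.13 and −0.045).

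Rflna was near the limit of what these libraries measure. In EV Tregs it stood at 1.08, 0.72 and 0.28 scaled TPM without IL-2 (0.69 ± 0.402, SD, n = 3) and at 0.020, 0.37 and 0.18 with it (0.19 ± 0.174, SD, n = 3). In 1G12t it stood at 0.77, 0.77 and 0.79, and in 3A10t at 0.73, 1.39 and 0.86. The libraries of EV no IL-2 overlapped with those of every other group, and the tether groups lay above all 3 EV+IL-2 libraries. Rflna thus had its lowest mean in EV+IL-2, as Rflnb did, and its order among the groups without IL-2 was 3A10t, 1G12t and EV no IL-2, with overlap at each step.

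The same held for weakly detected genes in general. Of 11840 genes with a mean of 0.3 to 1 TPM, 41.9% had all EV+IL-2 libraries below all EV no IL-2 libraries, and the median ratio of group means was 0.33, against 0.27 for Rflna. In the same band, 59.0% and 61.2% of genes had all 3A10t or all 1G12t libraries above EV+IL-2, with median ratios of 4.39 and 4.33, beside 5.28 and 4.13 for Rflna. A fit without the filter on low TPM gave log2 differences of 0.74 (limma adjusted p = 0.0174) and 0.59 (0.0415) for Rflna in 3A10t and 1G12t against EV+IL-2, and that band of genes moved the same way. Whether the Rflna values reflect its own expression was not tested.

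Flnc, the gene of filamin C, was barely detected, at a mean of 0.45 scaled TPM in 3A10t, 0.48 in 1G12t, 0.087 in EV+IL-2 and 0.22 in EV no IL-2. It was not tested and lay in the range of weakly detected genes.

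Filamin partners and actin genes were also compared with and without IL-2. Among 95 further genes in 5 lists, 83 were tested. Against EV no IL-2, 8 passed the threshold in EV+IL-2 (4 higher and 4 lower, or 9.64%), beside 13.3% of all genes (8.17% higher and 5.13% lower), and the median log2 difference was 0.10 against −0.014 for all genes. The count was 6 to 20 in the other fits, beside 3.29% to 26.8% of all genes.

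Among 21 filamin partners and regulators, 16 were tested, and 1 rose and 1 fell with IL-2 (12.5%, beside 13.3% of all genes). Itgb3, the β3 integrin chain, was 57.7 ± 0.225 scaled TPM with IL-2 and 29.6 ± 5.01 without, higher by 0.95 on the log2 scale (SE 0.12, limma adjusted p = 3.4e-04). Cd28, the costimulatory receptor that binds filamin A, fell from 153 ± 14.3 to 102 ± 1.88, a log2 difference of −0.57 (SE 0.085, limma adjusted p = 0.0013). The abundant integrin chains of T cells did not pass: the differences were 0.19 for Itgb1, 0.10 for Itgb2 and 0.20 for Itgb7 (limma adjusted p = 0.760, 0.714 and 0.252). Asb2, which directs filamins to degradation, had a mean of 0.72 TPM and was not tested.

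Among 19 crosslinkers and bundlers, 13 were tested, and 1 rose and 3 fell with IL-2 (30.8%, beside 13.3% of all genes). Tagln2, transgelin-2, rose from 357 ± 20.4 to 542 ± 17.2 scaled TPM (log2 difference 0.60, SE 0.11, limma adjusted p = 0.0056). Cnn2, calponin-2, fell from 358 ± 21.3 to 281 ± 4.15 (log2 difference −0.35, SE 0.076, limma adjusted p = 0.0118), and without EV no IL-2 replicate 1 its adjusted p was 0.0531. The other calls were Actn1, the α-actinin-1 gene, at 3.93 and 1.02 scaled TPM without and with IL-2 (log2 difference −1.28, limma adjusted p = 0.0036), and Lima1, at 2.44 and 0.90 (−0.85, adjusted p = 0.0135). The Lima1 call was lost with quantile normalization (limma adjusted p = 0.0660) and without EV no IL-2 replicate 1 or 2 (0.0521 and 0.0520). Both are weakly expressed and are named because their values were seen. Lcp1, L-plastin, the abundant bundler of leukocytes, differed by 0.083 (limma adjusted p = 0.884).

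All 35 genes of actin filament assembly and turnover were tested, and 2 rose with IL-2 (5.71%, beside 8.17% of all genes higher and 13.3% in either direction). Tpm4, a tropomyosin, rose from 185 ± 8.62 to 310 ± 21.6 scaled TPM (log2 difference 0.74, SE 0.14, limma adjusted p = 0.0058). Actg1, cytoplasmic γ-actin, rose from 842 ± 23.9 to 1259 ± 85.4 (log2 difference 0.58, SE 0.085, limma adjusted p = 0.0011). Actb, β-actin, at a mean of 13628 TPM, differed by −0.11 (limma adjusted p = 0.690). Of 18 genes that link actin to membrane, adhesion sites and contraction, 0 passed limma's threshold with IL-2, beside 13.3% of all genes. In this list 4 had an unadjusted p under 0.05, for which the share of all genes is not given here. Tln1, talin, which joins integrins to actin, differed by 0.14 (limma adjusted p = 0.525).

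In 3A10t Tregs, 2 of the 83 genes passed against EV no IL-2, both lower (2.41%), beside 2.05% of all genes. Actr2, a subunit of the actin-nucleating Arp2/3 complex, was 102 ± 13.6 scaled TPM in 3A10t and 145 ± 18.0 in EV no IL-2 (log2 difference −0.50, SE 0.11, limma adjusted p = 0.0438). With the replicate number as a block its adjusted p was 0.0593, and it passed in 8 of 24 alternatives. Vcl, vinculin, at 2.17 and 3.77 scaled TPM, differed by −0.59 (limma adjusted p = 0.0438) and is named because it was the only other call. Its adjusted p with the block was 0.0551, and it passed in 6 of 23 alternatives. Itgb1, the β1 integrin chain, stood at 140 ± 73.6 in 3A10t and 250 ± 24.5 in EV no IL-2, and its log2 difference of −0.95 did not pass (limma adjusted p = 0.0963). Actb differed by 0.31 (limma adjusted p = 0.171), a direction that turned to −0.087 with quantile normalization.

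Against 1G12t, 4 of the 83 genes were lower in 3A10t (4.82%), beside 2.96% of all genes on the lower side and 4.27% on either. Sptbn1, the β-spectrin gene, was 32.6 ± 7.59 against 51.7 ± 3.41 scaled TPM (log2 difference −0.67, limma adjusted p = 0.0388). Wipf1, the gene of a WASP-binding protein, was 8.60 ± 1.56 against 14.4 ± 1.97 (−0.69, adjusted p = 0.0299), and Fmnl1, a leukocyte formin, was 37.8 ± 3.51 against 55.5 ± 4.42 (−0.55, adjusted p = 0.0322). Actr2 was the other call (−0.47, limma adjusted p = 0.0433, and 0.0502 with the block). The transcripts of Sptbn1, Wipf1, Fmnl1 and Actr2 are 9107, 4728, 3824 and 3631 bases long. The medians of their length classes in 3A10t against 1G12t were −0.23, −0.21, −0.13 and −0.13. Against EV no IL-2, the median of the Sptbn1 class was −0.045 in 3A10t and 0.19 in 1G12t. With the length correction all of these calls were lost, with limma adjusted p of 0.0617, 0.0522, 0.0627 and 0.0577. The log2 differences were then −0.46, −0.50, −0.40 and −0.34. The share of all genes that passed was 1.37% with the correction, beside 4.27% without it. These 4 genes passed in 8, 12, 11 and 8 of 24 alternatives. The part of length in their levels was not tested.

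In 1G12t Tregs, limma called 0 of the 83 genes against EV no IL-2, and 6 had an unadjusted p under 0.05, beside 7.04% of all genes. Their median log2 difference was −0.039, against −0.0038 for all genes. The counts for both 3A10t comparisons depended on single libraries and on the fit. Without 3A10t replicate 1 they were 31 and 38 of the 83 genes, beside 23.2% and 27.6% of all genes. Without any other single library the count against EV no IL-2 was 0 or 1, beside 0.166% to 1.61% of all genes.

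**Figure D4:**
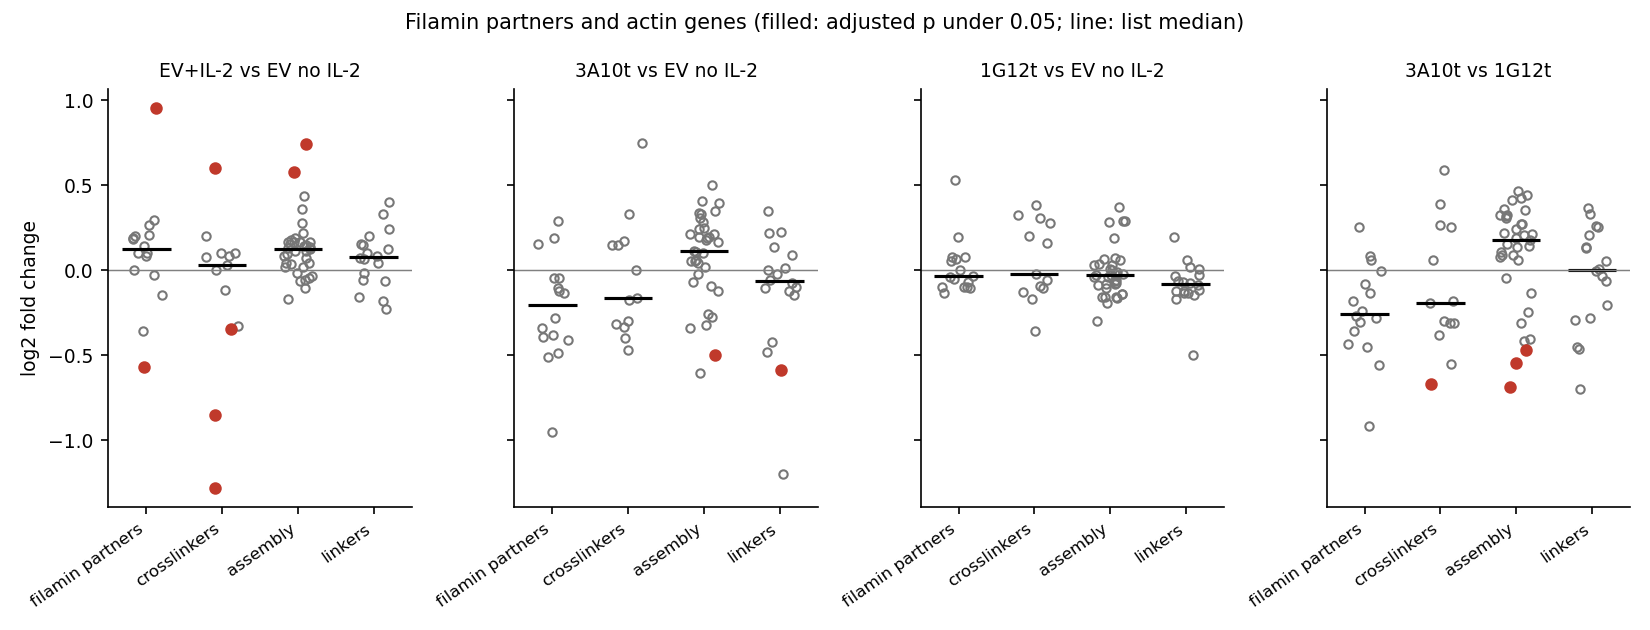
Log2 fold change (y axis) of each tested gene in the lists of filamin partners, actin crosslinkers, actin assembly and actin linkers, in 4 comparisons. Filled points passed an adjusted p of 0.05 (8, 2, 0 and 4 genes from left to right), open points did not, and lines mark the median of each list.

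The genes whose levels followed Rflnb most closely over the 12 libraries shared its low level with IL-2. Among 494 protein-coding genes with a mean of at least 5 TPM and group means that spread over at least 1 on the log2 scale, the largest Pearson correlations with Rflnb were for Tent5c (r = 0.988), Matk (0.984), F2rl1 (0.978), Itga7 (0.965) and Prg4 (0.964). Tent5c, a poly(A) polymerase, stood at 9.88 ± 0.471 scaled TPM in EV+IL-2, 37.1 ± 3.97 in EV no IL-2, 35.9 ± 3.46 in 1G12t and 27.4 ± 0.435 in 3A10t. Matk, a kinase that restrains Src family kinases, stood at 10.1, 32.4, 34.6 and 32.2 in the same order of groups. F2rl1, a protease-activated receptor, stood at 3.97, 11.3, 12.03 and 10.3, Itga7, an integrin chain that binds laminin, at 6.08, 17.5, 18.4 and 13.9, and Prg4, lubricin, at 6.87, 16.1, 17.1 and 16.2. These correlations rest on 4 groups that share their libraries with the choice of Rflnb, so they describe one step between EV+IL-2 and the rest.

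For Flna, among 5891 genes whose group means spread over at least 0.3, the closest included Yme1l1 (r = 0.959), Cnst (0.955), Ogdh (0.954) and Rab3gap1 (0.952). Each was lowest in 3A10t, as Flna was, which comes with their choice by correlation with Flna and is not a separate result. Yme1l1, a mitochondrial protease, stood at 38.7 ± 10.7 scaled TPM in 3A10t, 50.5 ± 3.52 in 1G12t, 44.8 ± 1.02 in EV+IL-2 and 50.2 ± 5.42 in EV no IL-2. The longest transcripts of these 4 genes measure 4127 to 4709 bases, in the length class with the lowest median in 3A10t against EV no IL-2. That class is also the largest, with 2574 of 11052 protein-coding genes, and Flna lies in a longer class. The part of length in these correlations was not tested.

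The genes beside Rflnb on chromosome 11 did not fall with it. The 3 nearest tested genes on the side of lower coordinates were Rph3al, Ywhae and Crk, and on the other side Vps53, Glod4 and Fam57a, at distances of 18.4 to 312 kb. The annotated span of Glod4 overlaps those of Vps53 and Fam57a, as that of the pseudogene Gm14686 beside Flna overlaps Emd, so their levels may share reads. Vps53, the nearest, stood at 48.8 ± 4.29 scaled TPM without IL-2 and 49.1 ± 2.73 with it (log2 difference 0.0093, limma adjusted p = 0.992). Rph3al, the nearest on the other side, stood at 5.03 ± 0.951 and 3.88 ± 0.452 (−0.30, limma adjusted p = 0.207). Ywhae, a 14-3-3 gene, was the only one of the 6 to pass, and it was higher, at 217 ± 12.8 against 166 ± 11.7 (0.39, limma adjusted p = 0.0375). That call passed in 12 of 24 alternatives. Of all genes, 13.3% passed in this comparison, 8.17% higher and 5.13% lower, so few of any 6 genes would be called lower. Beside Flna on the X chromosome, Emd, 4.87 kb away, differed by −0.067 with IL-2 (limma adjusted p = 0.775). Rpl10, a ribosomal protein gene 21.0 kb away, was higher with IL-2 by 0.48 (limma adjusted p = 0.0056). Irak1, on the other side of Flna, differed by −0.13 with IL-2 (limma adjusted p = 0.740), and the pseudogenes Gm8545 and Gm14686 by 0.29 and 1.13 (0.291 and 0.135).

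**Figure D5:**
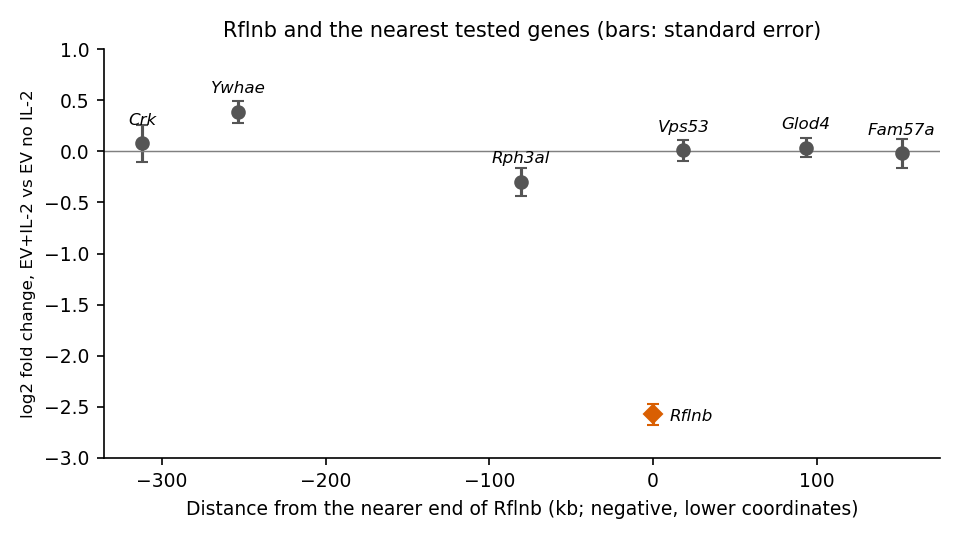
Log2 fold change of EV+IL-2 against EV no IL-2 (y axis, bars for the standard error) for Rflnb and the 3 nearest tested genes on each side, by distance from the nearer end of Rflnb in kb (x axis). Rflnb lay at −2.58 and its neighbours between −0.30 and 0.39.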

How the data were processed

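RNA of cultured mouse Tregs was sequenced from 12 libraries, 3 in each of 4 groups, and groups and replicates were taken from the sample labels. Full-length cDNA made with an oligo-dT primer was amplified and fragmented. The deposited values are TPM, made by the authors with cutadapt 1.18, STAR 2.5.3, RSEM 1.3.0 and a GENCODE annotation of GRCm38. DESeq2, which the authors ran on counts, was not used here. TPM keep no depth, so the spread between libraries is the only error given.

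TPM were divided by median-of-ratios factors, and genes whose mean TPM reached 1 (15043) were tested. The test was that of limma 3.58.1 in R 4.3.3, with lmFit and eBayes (trended), on log2(scaled TPM + 1). One fit held the 12 libraries, without a replicate block. P-values were adjusted by Benjamini-Hochberg over all of these genes, with a threshold of 0.05. Folds on this scale understate the change of low genes. Lengths and positions came from GENCODE M21 (GRCm38), which held 53569 of the 55228 symbols, and promoters from RefSeq (GRCm38.p6). Near-identical copies such as Gm8545, Gm14686 and the pseudogenes of Rpl10, Actb and Actg1 may share reads with their parents, so these values are uncertain.

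The genes, the 5 lists and the tests were chosen with earlier results of these data known. The text names the 3 genes and Flnc, with Itgb1, Itgb2, Itgb7, Asb2, Cd28, Actb, Actg1, Lcp1 and Tln1. It also names up to 2 genes per list, comparison and direction with the largest change among those past the threshold whose mean TPM reached 5 and whose libraries did not overlap, the 5 genes most correlated with Rflnb and with Flna, and the 3 nearest tested genes on each side, and some genes of this rule are not reported here. The 24 alternatives were pseudocounts of 0.1 and 5, no filter on low TPM and a filter at a mean of 5, quantile normalization, TPM as deposited, the replicate block, eBayes without a trend, library weights, only the 6 libraries compared, each of 12 libraries left out, and a lowess correction for transcript length (span 0.3), alone and with the block. The length corrections were added after the data were seen. The code was tested on simulated data. The replicate numbers pair the libraries by the labels, which give each number a sort of its own. Over 18 pairs with the same number, deviations from the group means had a mean correlation of 0.041 (−0.11 to 0.15), and over 36 pairs with different numbers −0.020.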

Additional observations from a re-analysis of the deposited data

How the results depend on the processing

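The direction of Rflnb held in every alternative in which it was computed, and its calls did not. Rflnb in 3A10t against EV no IL-2 passed the threshold with TPM as deposited (−0.55), with library weights (−0.49) and without 3A10t replicate 1 (−0.40). Leaving out single libraries gave −0.47 to −0.34. Against 1G12t it passed with TPM as deposited (−0.47) and with library weights (−0.37), and single libraries left out gave −0.40 to −0.22. For Flna in 3A10t, library weights gave −0.82 against EV no IL-2 (−0.77 to −0.34 with single libraries left out), −0.82 against 1G12t (−0.81 to −0.38) and −0.60 against EV+IL-2 (−0.56 to −0.13), all past the threshold in the weighted fit, and TPM as deposited gave −0.78 against 1G12t, also past it. Flna in 1G12t against EV+IL-2 passed only with the 6 libraries compared (0.26). Against EV no IL-2 it reversed to −0.098 with the length correction, with and without the block, and ranged from −0.099 to 0.14 with single libraries left out, below 0 without EV no IL-2 replicate 1 or 1G12t replicate 3. Actb in 3A10t reversed to −0.087 with quantile normalization. With pseudocounts of 0.1 and 5, the Rflnb difference with IL-2 was −2.87 and −1.83, and those of 3A10t and 1G12t from EV+IL-2 were 2.45 and 1.49, and 2.74 and 1.73, by construction of the scale.

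The counts of listed genes moved most, and the shares of all genes, given below, also moved between these fits. With IL-2 (8) the count was 20 with library weights and 14 with the 6 libraries compared and with either length correction, and 6 to 13 with single libraries left out. In 3A10t against EV no IL-2 (2) it was 1 with a pseudocount of 5, quantile normalization or no trend, 0 with no filter, the 6 libraries compared or either length correction, 30 with library weights, and 0 to 31 with single libraries left out. In 3A10t against 1G12t (4) it was 0 with no filter or the 6 libraries compared, 11 with a mean TPM of at least 5, 14 with TPM as deposited, 2 with no trend or the length correction, 1 with the length correction and block, 36 with library weights, and 0 to 38 with single libraries left out. Among the fits with a single library left out, the largest of these counts were those without 3A10t replicate 1. Of all genes, 26.8%, 20.4% and 20.7% passed in these comparisons with library weights. Without 3A10t replicate 1 the shares of all genes were 16.6%, 23.2% and 27.6%. For 3A10t against 1G12t, 9.28% of all genes passed with TPM as deposited and 11.7% with a mean TPM of at least 5. With no filter, 0.43% passed in 3A10t against EV no IL-2 and 0.283% against 1G12t, and without a trend 1.24% and 1.69%. Against EV no IL-2, 1.77% passed with a pseudocount of 5 and 1.21% with quantile normalization. The cause was not tested.

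With the replicate block, limma's adjusted p for Rflnb in 3A10t was 0.0654 against EV no IL-2 and 0.0943 against 1G12t, and for Flna 0.140 and 0.0992. The block changed no call of Rflnb or Flna, and the count in 3A10t against 1G12t was 6, beside 6.56% of all genes. Depth is unknown, which limits Rflna and Flnc most.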
